A study of Rattus norvegicus with 14 samples.

Results

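The comparison described here sets lateral prostates of rats given testosterone with a high amount of bisphenol A (T+highBPA) against lateral prostates of rats given testosterone with a low amount (T+lowBPA). Its arrays were chosen by their labels, 3 T+highBPA and 3 T+lowBPA, which makes 6 of the 14 arrays of the series, and every probe set entered. All rats were male Noble rats aged 48 weeks, with 1 array per rat. T+highBPA rats carried capsules with 30 mg testosterone and 320 mg bisphenol A for 32 weeks, and T+lowBPA rats carried capsules with 30 mg testosterone and 15 mg bisphenol A for the same time. The other groups were 4 rats given 30 mg testosterone with 15 mg estradiol (T+E2) and 4 control rats with empty capsules. Both bisphenol A groups received testosterone, and rats given testosterone alone were not analysed here. Each p-value is therefore set against the variation among individual rats.

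Bisphenol A is a plasticizer compound that binds estrogen receptors weakly and is cleared from the body mainly as a glucuronide. The rodent prostate consists of paired ventral, lateral, dorsal and anterior lobes, whose luminal cells secrete different proteins under androgen control. Noble rats given testosterone with estradiol are used as a model of hormone-driven prostate lesions. Values below are log2 values made with robust multi-array averaging (RMA), so that 1 unit is a factor of 2 in signal, and a difference is the T+highBPA mean minus the T+lowBPA mean. In whole tissue, fewer cells of a type and less RNA per cell cannot be told apart.

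Some arrays stood apart before any comparison. Pbsn, the probasin gene of prostate secretion, which stands in both the lateral and dorsal list and the ventral list used here, had 13.00, 12.69 and 12.92 in T+highBPA and 13.07, 12.74 and 12.95 in T+lowBPA, and was thus bright on all 6 arrays. The mean of 12 measured ventral prostate secretory genes was 8.99, 9.67 and 8.64 in T+highBPA and 7.15, 7.26 and 7.16 in T+lowBPA. The same mean was 9.72 in T+E2 replicate 2 and 9.38 in control replicate 4, and it was at most 7.63 on the other 6 arrays of those groups. The mean of 22 skeletal muscle genes was 6.10, 5.99 and 8.19 in T+highBPA and 6.93, 6.61 and 9.31 in T+lowBPA, with replicate 3 the highest of each group. The part of these array differences in the results below was not tested.

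At an adjusted p below 0.05 (limma, Benjamini-Hochberg over 17802 probe sets), 0 probe sets were called, which is 0% of those tested, and the smallest adjusted p was 0.238. At an unadjusted p below 0.05 there were 2450 probe sets, or 13.8%, of which 985 (5.53%) were higher and 1465 (8.23%) lower in T+highBPA. The share of higher ones was 40.2% on the deposited values, 55.4% after median centring, 59.2% after cyclic loess, 50.9% after quantile normalization and 66.8% among probe sets with a mean of at least 6. The 3 T+highBPA arrays lay wholly above the 3 T+lowBPA arrays for 1644 probe sets (9.23%) and wholly below for 2830 (15.9%). A difference of at least 2-fold was seen for 41 probe sets higher (0.23%) and 16 lower (0.0899%). Of the 41, 26 did not overlap between the groups (0.146%), against 0 of the 16 (0%). A difference above 0 was found for 39.2% of all probe sets and below 0 for 60.8%, and the median difference was -0.05. Half-widths of the 95% intervals had a median of 0.289, so a difference below about this size has an interval that includes 0 for a typical probe set. Simulated arrays had the same number and each probe set's own spread, with independent normal values. On them, 85.7% of 2-fold differences and 35.7% of 1.41-fold differences were called. The changed probe sets were drawn at random, and 10 unchanged ones were also called. No outlying arrays, correlated genes or shift with brightness were simulated, so these shares may not hold for the real values.

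The direction depended on how bright a probe set was. Among the 2146 probe sets with a mean between 4 and 5, 14.8% were higher in T+highBPA and the median difference was -0.15. Among the 2020 between 8 and 9, 63.5% were higher and the median was 0.06. The values were spread more widely on T+highBPA arrays (SD over probe sets 1.91, 1.91 and 1.90) than on T+lowBPA arrays (1.83, 1.78 and 1.84). After cyclic loess these medians were -0.01 and 0.00. Of 1083 olfactory receptor genes, a family chosen after its values were seen and mostly dim, 994 were lower in T+highBPA, with a median of -0.18 that was -0.05 after quantile normalization.

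**Figure D1:**
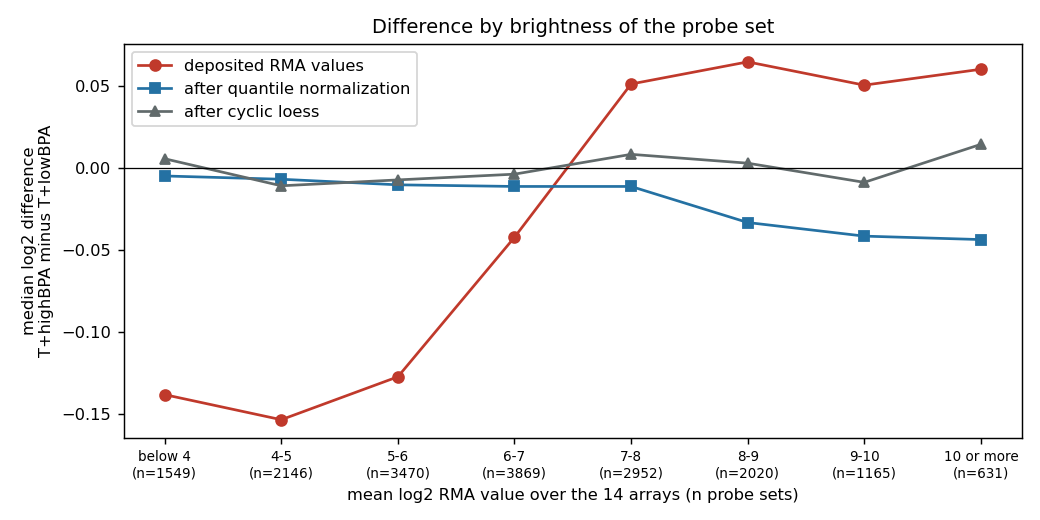
Median log2 difference, T+highBPA minus T+lowBPA (vertical axis), in bins of mean log2 RMA value (horizontal axis), for the deposited values and after quantile normalization and cyclic loess. On the deposited values the medians are negative up to a mean of 7 and between 0.05 and 0.06 above it, and after either normalization they lie between -0.04 and 0.01.

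Genes of the ventral prostate secretion had the largest differences. Of 12 measured members of that list, 6 were higher without overlap between the groups (9.23% over all probe sets), none was called, and the other 6 lay between -0.40 and -0.05. Among those other 6, Klk1c2, Rbp4, Spink1 and Crisp1 were dim, with means from 4.26 to 4.67 over all arrays. Pbsn and A2m were bright. The list's median was 0.96. Klk1c9, a glandular kallikrein (a secreted protease), had 11.10, 13.02 and 9.47 in T+highBPA and 5.89, 5.78 and 5.76 in T+lowBPA. All 3 T+highBPA arrays were far above the T+lowBPA arrays, and replicate 2 was the highest. The difference was 5.39, or 41.8-fold (95% interval 0.88 to 9.89, adjusted p = 0.313, limma), and it was 4.47 without T+highBPA replicate 2. Kallikreins of this family are close copies of each other, and whether the probes separate them is not given in the sources used here.

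Andpro, an androgen-regulated secreted protein, had 11.20, 12.37 and 10.14 in T+highBPA and 6.94, 6.97 and 6.97 in T+lowBPA. Sbp, the spermine binding protein of the ventral lobe, had 12.70, 13.25 and 11.76 in T+highBPA and 8.72, 9.68 and 8.63 in T+lowBPA. Both genes repeat the order of Klk1c9, with replicate 2 highest and no overlap. Their differences were 4.28 and 3.56, with adjusted p = 0.325 and 0.31 (limma). The secretoglobins, small proteins secreted as dimers, were also higher without overlap. Scgb1d2 had 10.10, 12.43 and 9.79 in T+highBPA and 6.41, 6.68 and 6.31 in T+lowBPA. Scgb1d4 had 10.07, 11.98 and 9.59 in T+highBPA and 6.16, 6.49 and 6.31 in T+lowBPA. Scgb2a1 had 12.53, 13.09 and 12.10 in T+highBPA and 10.61, 10.86 and 10.35 in T+lowBPA. Scgb2a1 was thus already bright in T+lowBPA, and its difference of 1.96 was the smallest of the 6.

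The promoters of the 3 secretoglobins are shown because these genes lie within 266 kb of each other on chromosome 1 and differed together. Each is the 250 bases before the gene's start in RefSeq, build GRCr8. In Scgb2a1 the capitals mark the steroid response half-site AGAACA, here read on the other strand as TGTTCT, 116 bases before the start. In Scgb1d2 and Scgb1d4 they mark the letters TATAAA, the core of a TATA box, which were picked after the sequences were seen.
Scgb2a1 promoter (chr1:215922501-215922750, + strand): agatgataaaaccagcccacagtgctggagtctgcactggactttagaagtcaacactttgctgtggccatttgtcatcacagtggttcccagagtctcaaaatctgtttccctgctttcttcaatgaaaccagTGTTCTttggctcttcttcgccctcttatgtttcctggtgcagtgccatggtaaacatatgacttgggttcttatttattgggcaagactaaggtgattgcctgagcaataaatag
Scgb1d2 promoter (chr1:215656711-215656960, - strand): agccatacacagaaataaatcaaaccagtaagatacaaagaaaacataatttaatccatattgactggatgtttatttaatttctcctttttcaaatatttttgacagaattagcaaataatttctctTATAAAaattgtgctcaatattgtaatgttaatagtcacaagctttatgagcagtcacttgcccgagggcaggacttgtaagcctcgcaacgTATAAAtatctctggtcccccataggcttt
Scgb1d4 promoter (chr1:215755113-215755362, + strand): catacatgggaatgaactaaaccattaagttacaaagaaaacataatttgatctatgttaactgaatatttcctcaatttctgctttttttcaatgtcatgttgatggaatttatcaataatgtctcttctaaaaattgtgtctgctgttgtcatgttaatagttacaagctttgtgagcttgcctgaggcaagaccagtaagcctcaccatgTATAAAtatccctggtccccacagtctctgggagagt
The Scgb1d2 and Scgb1d4 stretches were identical in 72.4% of 261 aligned positions. TATAAA stood 30 bases before the start in Scgb1d2, with another match 122 bases before it, and 37 bases before the start in Scgb1d4. On either strand it occurs in 12.9% of 33469 such promoters. The half-site was found in 1 of 5 promoters of the ventral genes above that the table holds, and it occurs in 17.5% of all promoters. The motifs do not overlap.

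**Figure D2:**
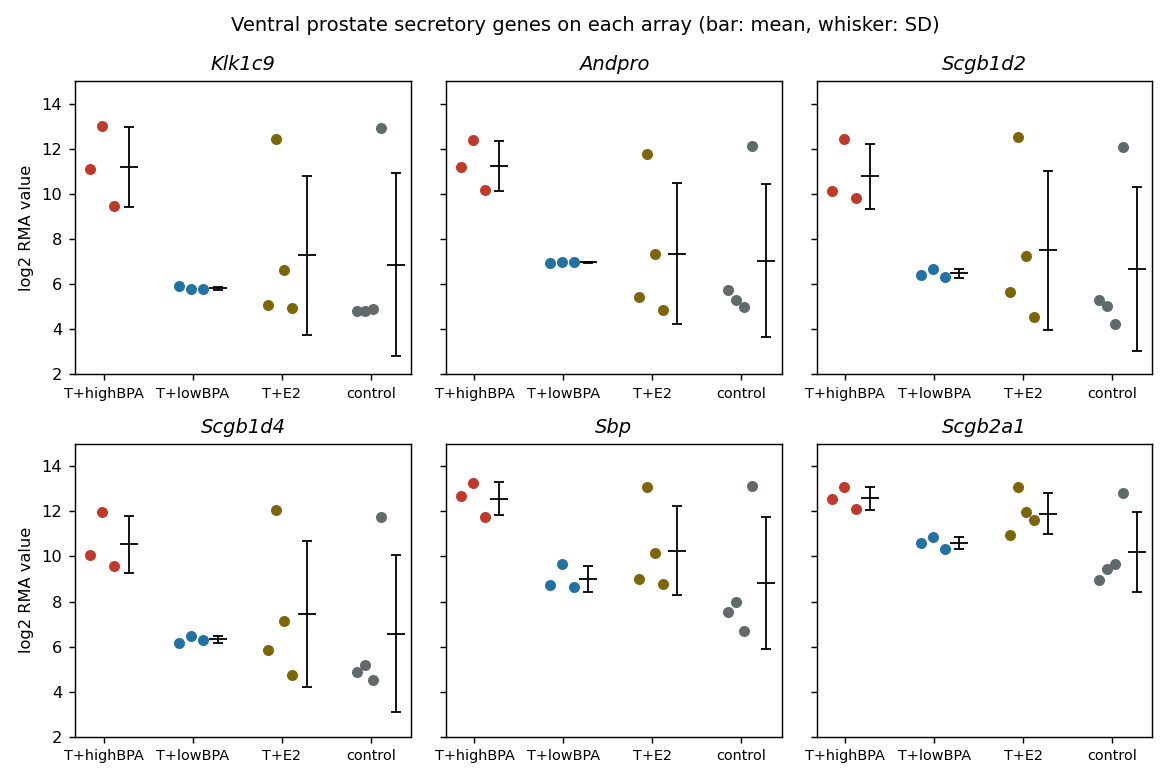
Log2 RMA value (vertical axis) of 6 ventral prostate secretory genes on each array of the 4 groups, with points for arrays, a bar for the mean and whiskers for the SD. All 3 T+highBPA arrays lie above all 3 T+lowBPA arrays in each panel, and 1 T+E2 array and 1 control array lie as high.

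The same genes were high on single arrays of the other groups. Klk1c9 had 12.45 in T+E2 replicate 2 and at most 6.60 in the other T+E2 arrays, and it had 12.93 in control replicate 4 and at most 4.90 in the other controls. These arrays widen the spread shared by the groups. Without control replicate 4 the adjusted p of Klk1c9 was 0.151, and without T+E2 replicate 2 it was 0.3 (limma). Fitted on the 6 arrays alone it was 0.0478, and 17 probe sets were then called, all higher, with Sbp, Andpro, Scgb1d4, Scgb2a1 and Klk1c9 among them. With the replicate number as a block as well, an alternative chosen after seeing the data, 11 were called, 8 higher and 3 lower, of which 6 were among the 17, and the adjusted p of Klk1c9 was 0.0469 (limma). Other ventral secretion genes outside the list went the same way. P22k15, a cystatin-related glycoprotein, had 9.01, 11.75 and 7.19 in T+highBPA and 4.88, 4.99 and 4.59 in T+lowBPA. S100vp, an S100 calcium-binding protein named for the ventral prostate and chosen here after its values were seen, had 7.16, 9.93 and 5.27 in T+highBPA and 4.09, 4.03 and 4.47 in T+lowBPA. Neither overlapped between the groups. Fut9, a fucosyltransferase outside the list, had 6.65, 10.13 and 6.25 in T+highBPA and 4.83, 5.07 and 6.01 in T+lowBPA. Its difference of 2.37 was 1.15 without T+highBPA replicate 2. With the ventral list's mean as a covariate it was 0.25 (adjusted p = 0.896, limma). Fut9 ran from 6.88 to 9.92 in T+E2 and from 6.37 to 9.96 in control, so the T+lowBPA arrays lay below all others. Its highest arrays there were T+E2 replicate 2 and control replicate 4, as for Klk1c9.

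Lateral and dorsal secretion genes did not share this pattern. Of 12 measured, 5 were above and 7 below 0, with a median of -0.03 that was 0.01 after cyclic loess and after median centring. Tgm4, the transglutaminase of the dorsal and anterior lobes, had 6.84, 7.75 and 10.26 in T+highBPA and 7.20, 8.66 and 10.07 in T+lowBPA, and the groups overlapped. Hoxb13, a homeobox factor of the prostate, had 9.33, 9.53 and 9.15 in T+highBPA and 8.61, 8.62 and 8.74 in T+lowBPA, without overlap (difference 0.68, adjusted p = 0.32, limma).

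The 12 higher genes with the smallest p were outside the ventral list, each with an adjusted p of at most 0.25 and none below 0.05. Ka11, a type I keratin, had 6.67, 7.07 and 7.42 in T+highBPA and 5.94, 5.94 and 5.85 in T+lowBPA. Agr2, a protein disulfide isomerase of mucus-secreting epithelium, had 10.42, 10.47 and 8.71 in T+highBPA and 7.92, 7.62 and 8.12 in T+lowBPA. Replicate 3 of T+highBPA lay closest to T+lowBPA. The difference of Agr2 was 1.98, or 3.95-fold (95% interval 1.20 to 2.77, adjusted p = 0.25, limma), and it was 2.56 without T+highBPA replicate 3 (adjusted p = 0.000901, limma). Agr2 was brighter still with estradiol, at 11.15 to 11.95 in T+E2, and it had 8.62 to 9.18 in control.

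Rab13, a small GTPase of tight junction traffic, had 8.17, 8.22 and 8.61 in T+highBPA and 7.58, 7.58 and 7.72 in T+lowBPA. Vamp8, a SNARE protein of secretory granule and endosome fusion, had 9.21, 9.57 and 9.50 in T+highBPA and 8.33, 8.47 and 8.46 in T+lowBPA. Neither overlapped. Psma6, a subunit of the proteasome core, was higher by 0.61, Krtcap2, a subunit of the enzyme that attaches N-glycans, by 0.74, and Hprt1, a purine salvage enzyme, by 0.49. Atraid, Eci3, Cirbp, Usf2 and Sap30bp completed the 12, with differences from 0.52 to 0.75.

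**Figure D3:**
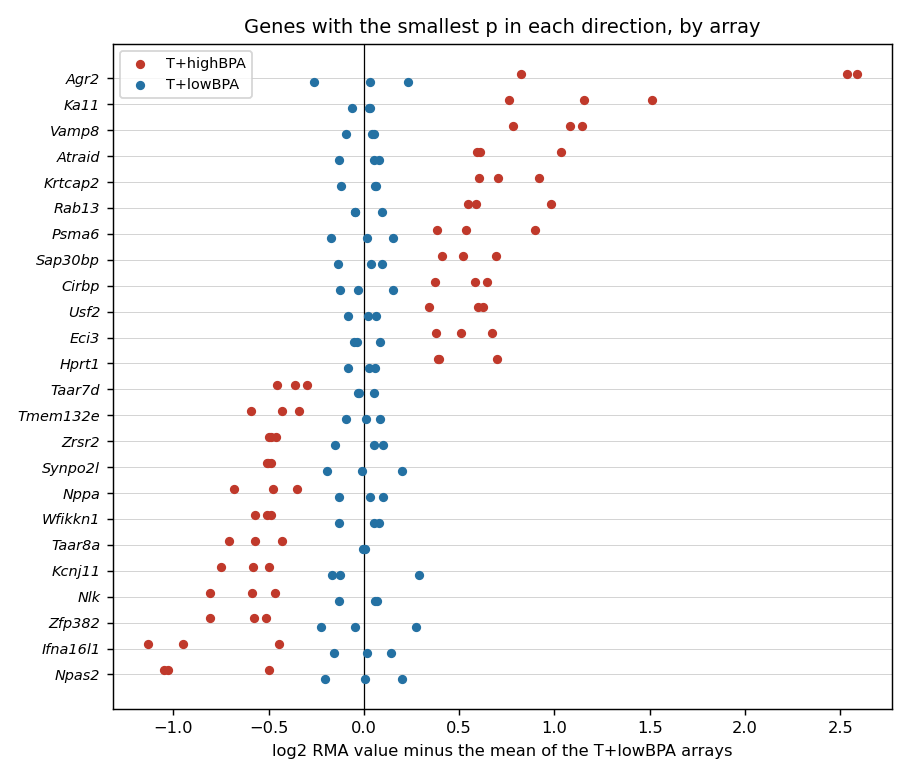
Log2 RMA value minus the T+lowBPA mean (horizontal axis) for each of the 6 arrays, T+highBPA points above T+lowBPA points on each line. Shown are the 12 genes with the smallest p in each direction among those without overlap, serial symbols left out. Agr2 shows the widest spread within T+highBPA.

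The 12 lower genes named by smallest p leave out 6 with serial symbols, such as those of olfactory receptors, against 0 left out among the higher ones. Or2av10, 1 of those left out, was dim and lower by a difference of -0.64 (adjusted p = 0.25, limma). The 12 named were mostly dim, 7 of them with a mean below 6 over all arrays, against 0 of the 12 higher ones. Npas2, a partner of the clock protein Bmal1, had the largest difference among the 12 named and is given with the clock below. Nlk, a kinase that acts on Wnt signalling, had 6.94, 7.16 and 7.28 in T+highBPA and 7.62, 7.82 and 7.80 in T+lowBPA. Zrsr2, a splicing factor of the minor spliceosome, had 7.20, 7.21 and 7.24 in T+highBPA and 7.55, 7.75 and 7.80 in T+lowBPA. Both were without overlap, with adjusted p = 0.25 (limma). Wfikkn1, Kcnj11, Zfp382, Tmem132e, Synpo2l, Taar7d, Taar8a, Ifna16l1 and Nppa were lower by differences from -0.84 to -0.37. At an unadjusted p below 0.05 and without overlap, Cryzl1, Pcdha10, Ndc80, Aadat, Usp13 and Trem3 had differences from -0.84 to -0.75.

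Luminal epithelium genes were mostly higher. Of 16 measured, 14 were above 0 (39.2% over all probe sets), 7 did not overlap in the higher direction (9.23% over all probe sets) and none was called. The list is bright, and of all probe sets with a mean between 8 and 9, 63.5% were higher. Its median was 0.22, and it was 0.13 after quantile normalization and 0.17 after cyclic loess. Cldn4, a tight junction claudin, had 8.13, 8.64 and 8.06 in T+highBPA and 7.29, 7.33 and 7.23 in T+lowBPA. Cldn7 had 9.33, 9.65 and 9.53 in T+highBPA and 8.51, 8.59 and 8.66 in T+lowBPA. Krt19, a luminal keratin, was higher by 0.64. The list's mean was 8.93, 8.92 and 8.83 in T+highBPA and 8.54, 8.56 and 8.60 in T+lowBPA, and these values did not overlap. Of 16 basal epithelium genes, 6 were above and 10 below 0, with a median of -0.06.

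Interferon response genes, which are induced by interferon receptors through STAT and IRF factors, were higher in 30 of 32 measured, with a median of 0.25 against -0.05 over all probe sets. Of these, 10 did not overlap (9.23% over all probe sets) and none was called. The list's median was 0.21 after quantile normalization and 0.24 after cyclic loess. Isg15, a ubiquitin-like modifier, had 6.91, 7.91 and 7.29 in T+highBPA and 6.22, 6.64 and 6.63 in T+lowBPA. Mx1, an antiviral GTPase, had 6.98, 7.56 and 6.78 in T+highBPA and 6.05, 6.15 and 6.39 in T+lowBPA. Oas1b, of the oligoadenylate synthase family, had 5.41, 6.50 and 5.60 in T+highBPA and 4.87, 5.26 and 4.98 in T+lowBPA. Replicate 2 of T+highBPA was highest in all 3, as for the ventral genes. The differences were 0.87, 0.91 and 0.80, with adjusted p between 0.25 and 0.263 (limma). Mx2 was higher by 1.05. Without T+highBPA replicate 2 the difference of Isg15 was 0.60 and the list's median 0.19. Psmb9, an immunoproteasome subunit of antigen presentation, was higher by 0.81 without overlap. Tap2 of the same list was lower by a difference of -0.28, also without overlap. Of 20 antigen presentation genes, 15 were above and 5 below 0, and the list's means overlapped between the groups. Markers of T cells were above 0 in 12 of 19 and those of macrophages in 14 of 18. The list means for T cells were 6.31, 6.27 and 6.55 in T+highBPA and 6.34, 6.23 and 6.26 in T+lowBPA. For macrophages they were 7.90, 7.61 and 7.93 in T+highBPA and 7.89, 7.76 and 7.36 in T+lowBPA. The groups overlapped in both lists. The part of these cells in the interferon values was not tested.

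The Oas1b promoter is shown because it holds the letters of an interferon-stimulated response element, GAAA, any 2 bases and GAAA again, marked in capitals as 2 overlapping matches.
Oas1b promoter (chr12:41395853-41396102, - strand): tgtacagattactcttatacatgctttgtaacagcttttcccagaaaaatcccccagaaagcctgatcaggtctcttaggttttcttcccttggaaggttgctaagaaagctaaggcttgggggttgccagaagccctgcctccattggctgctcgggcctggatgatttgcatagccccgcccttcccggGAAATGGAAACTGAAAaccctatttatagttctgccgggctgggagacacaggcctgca
The matches started 59 and 53 bases before the gene's start. The motif, searched on both strands, occurs in 3.41% of all promoters of this length, and these letters were not in the Mx1 window of the same table. A match describes the letters only.

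Genes of energy metabolism were higher by small amounts. All 26 measured genes of oxidative phosphorylation were above 0, with a median of 0.26 and 11 without overlap (9.23% over all probe sets), and none was called. The medians after quantile normalization and cyclic loess were 0.17 and 0.21. Ndufa2, a complex I subunit, had 7.41, 7.15 and 7.79 in T+highBPA and 6.69, 6.74 and 6.87 in T+lowBPA. Cox4i1, a subunit of cytochrome oxidase, was higher by 0.50 with overlap, and Atp5f1b, of the ATP synthase, by 0.41 without it. The list's mean was 9.17, 9.18 and 9.48 in T+highBPA and 8.94, 8.86 and 9.17 in T+lowBPA, with replicate 3 highest in both groups.

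Of 24 genes of fatty acid oxidation, 19 were above 0, 10 without overlap in the higher direction (9.23% over all probe sets) and 1 in the lower (15.9%). The list's median was 0.21, and it was 0.13 after quantile normalization and 0.16 after cyclic loess. Acaa2, the thiolase of mitochondrial oxidation, had 9.77, 9.64 and 9.69 in T+highBPA and 9.10, 9.09 and 9.25 in T+lowBPA. Hadh and Acadl, which catalyse earlier steps, were higher by 0.50 and 0.40. Cholesterol synthesis genes were above 0 in 15 of 18 (median 0.27). Their mean was 7.90, 8.59 and 7.85 in T+highBPA and 7.73, 7.75 and 7.97 in T+lowBPA, which overlapped, and replicate 2 of T+highBPA was the highest. Without that array the list's median was 0.04, and with the ventral list's mean as a covariate it was -0.36. Mvd, the member of this list with the smallest p, went the other way. It was lower by a difference of -0.31, with overlap (adjusted p = 0.327, limma). Lss, which forms lanosterol, was higher by 0.52 and Ebp, a later isomerase, by 0.40. The intervals of Lss (-0.11 to 1.15) and Ebp (-0.03 to 0.83) included 0. In a family chosen after its values were seen, 34 of 38 proteasome subunits were above 0 (median 0.31, and 0.23 after quantile normalization).

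**Figure D4:**
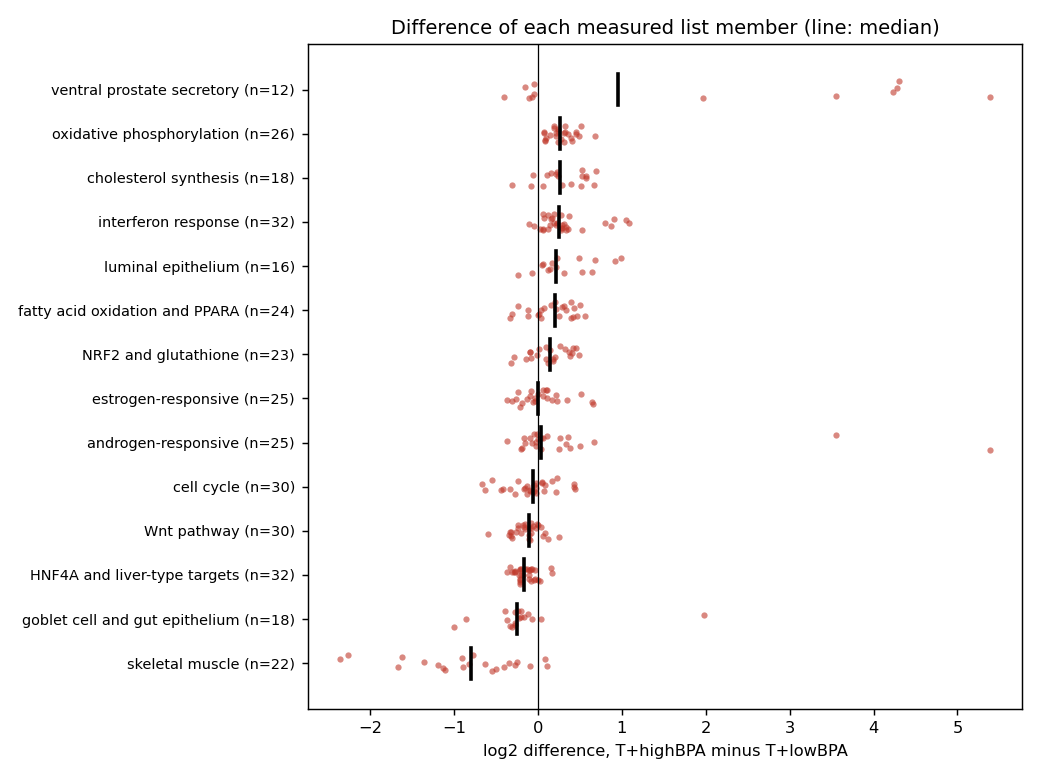
Log2 difference, T+highBPA minus T+lowBPA (horizontal axis), of each measured member of 14 gene lists (points), with the list's median as a line. The ventral list separates into 6 members between 1.96 and 5.39 and 6, mostly dim, between -0.40 and -0.05. Skeletal muscle members are mostly below 0.

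Of 15 clock genes measured, 9 were above and 6 below 0, and none was called. Without overlap there were 2 higher (9.23% over all probe sets) and 3 lower (15.9%), shares near those of all probe sets. The clock is a loop in which Bmal1 with Clock or Npas2 switches on Per and Cry genes, whose proteins then block them, and Tef and Dbp are output factors. The time of day at tissue collection was not used here. Npas2 had 8.62, 8.09 and 8.06 in T+highBPA and 9.31, 9.12 and 8.91 in T+lowBPA, without overlap. It was lower by a difference of -0.86 (95% interval -1.24 to -0.48, adjusted p = 0.25, limma). Its level in T+E2 ran from 8.22 to 8.37 and in control from 7.95 to 8.64, so T+lowBPA stood above all other arrays. Bmal1 had 6.44, 6.40 and 6.39 in T+highBPA and 6.93, 6.62 and 6.55 in T+lowBPA. Nfil3, a repressor that competes with the output factors, was lower by a difference of -0.39 without overlap.

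Per2 had 6.56, 6.74 and 6.57 in T+highBPA and 6.23, 6.12 and 6.33 in T+lowBPA. Tef had 7.23, 7.18 and 7.06 in T+highBPA and 6.45, 6.52 and 6.85 in T+lowBPA. Both were higher without overlap, by 0.39 and 0.55 (adjusted p = 0.25 for each, limma). Cry2 was higher by 0.47 and Per3 by 0.32, both with overlap. The rest of the list also overlapped. Per1, Cry1, Dbp, Rora and Bhlhe40 were higher by 0.12 to 0.32. Nr1d1, Clock and Ciart were lower by differences from -0.26 to -0.06. The Tef promoter is shown because it was the only 1 of 5 clock promoters searched to hold the E-box CACGTG, the letters that Bmal1 and its partners bind, given in capitals.
Tef promoter (chr7:115206577-115206826, + strand): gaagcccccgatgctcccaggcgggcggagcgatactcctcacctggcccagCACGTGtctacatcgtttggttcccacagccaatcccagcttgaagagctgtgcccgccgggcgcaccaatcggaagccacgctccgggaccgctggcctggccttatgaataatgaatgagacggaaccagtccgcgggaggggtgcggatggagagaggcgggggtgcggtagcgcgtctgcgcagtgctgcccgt
The E-box lay 198 bases before the start, and it occurs in 5.59% of all promoters of this length.

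**Figure D5:**
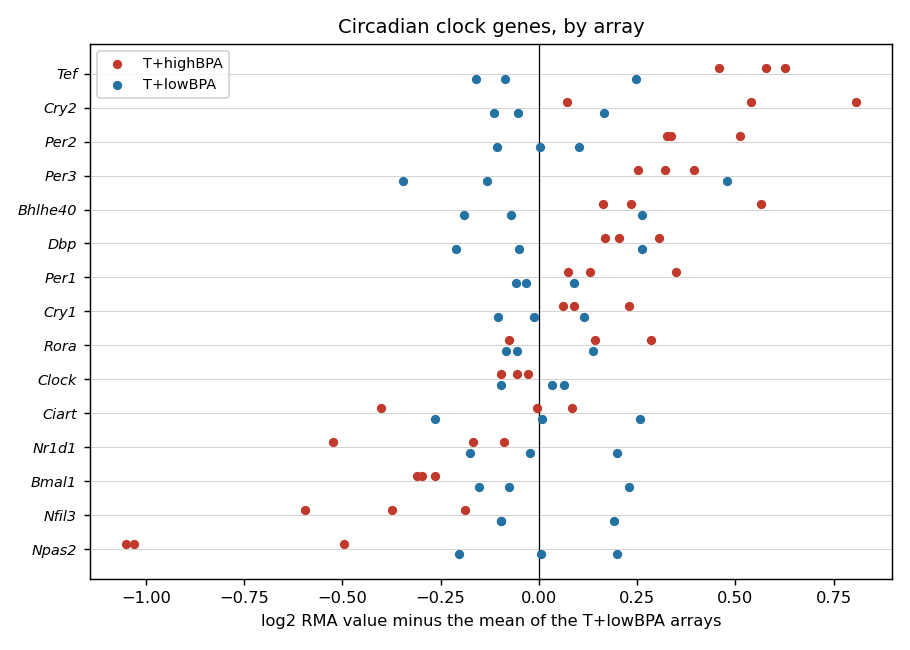
Log2 RMA value minus the T+lowBPA mean (horizontal axis) of 15 clock genes on each of the 6 arrays. Tef and Per2 lie above the T+lowBPA points without overlap, and Npas2, Nfil3 and Bmal1 lie below them.

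No gene of hormone action was called. Of 25 estrogen-responsive genes, 13 were above and 12 below 0, with a median of 0.00. Esr1, the estrogen receptor alpha gene, had 6.20, 6.21 and 6.19 in T+highBPA and 6.20, 6.40 and 6.17 in T+lowBPA. Esr2, the beta receptor gene of prostate epithelium, had 9.98, 10.11 and 9.54 in T+highBPA and 9.74, 9.72 and 9.69 in T+lowBPA. The 95% intervals of these differences ran from -0.27 to 0.15 and from -0.37 to 0.69. Pgr, the progesterone receptor gene, had an interval of -0.82 to 0.09, Gper1, a membrane estrogen receptor, of -0.34 to 0.18, and Prlr, the prolactin receptor, of -0.57 to 1.88. All 5 intervals included 0. The 4 members of the list with the smallest p had intervals that excluded 0. Fhl2 and Krt19 were higher by 0.51 and 0.64, and Stc2 and Egr3 were lower by differences of -0.26 and -0.31. Their adjusted p ran from 0.28 to 0.35 (limma). Without overlap the list held 4 higher members (9.23% over all probe sets) and 4 lower ones (15.9%). Of 25 androgen-responsive genes, 13 were above 0, with Klk1c9 and Sbp of the ventral list at the top. Srd5a1, which reduces testosterone to dihydrotestosterone, was lower by a difference of -0.32, and Hsd17b2, which inactivates testosterone and estradiol, by -0.46, both without overlap. Hsd17b10 and Hsd17b11 were higher by 0.72 and 0.43.

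Among genes of xenobiotic metabolism, 8 of 30 were above 0. Ephx1, the microsomal epoxide hydrolase, had 8.96, 8.72 and 9.09 in T+highBPA and 8.14, 7.81 and 8.26 in T+lowBPA (difference 0.85, adjusted p = 0.25, limma). Ces1d, a carboxylesterase, was higher by 0.74. Ugt2b1, the glucuronosyltransferase of rat liver that acts on bisphenol A, was dim, with 3.93, 3.73 and 3.73 in T+highBPA and 4.16, 4.74 and 4.52 in T+lowBPA. Gss, the last enzyme of glutathione synthesis, was higher by 0.42 and Gstm2, a glutathione transferase, by 0.49.

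The lipid genes Gpat4, Gk5 and Pi4k2b were followed whatever their values. Gpat4, which starts glycerolipid synthesis, had 9.11, 9.19 and 9.12 in T+highBPA and 9.02, 8.88 and 9.11 in T+lowBPA. Gk5, a glycerol kinase family member, had 9.56, 9.05 and 9.74 in T+highBPA and 9.75, 10.01 and 9.85 in T+lowBPA. Pi4k2b, a phosphatidylinositol kinase, had 9.55, 9.38 and 9.45 in T+highBPA and 9.76, 9.74 and 9.80 in T+lowBPA. The differences were 0.14, -0.42 and -0.31, with adjusted p = 0.663, 0.325 and 0.263 (limma). All 6 arrays of each gene lay above every T+E2 and control array.

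Several other lists were mostly below 0. Of 32 HNF4A and liver-type targets, 28 were below 0, with a median of -0.16 that was -0.06 after quantile normalization and 0.08 over the members with a mean of at least 6. Hnf4a itself, a nuclear receptor of liver and gut, had 5.66, 5.62 and 5.80 in T+highBPA and 5.93, 6.14 and 5.83 in T+lowBPA (adjusted p = 0.561, limma). Of 18 goblet cell and gut genes, 16 were below 0 (60.8% over all probe sets), and Agr2 was 1 of the 2 above. Of 30 Wnt pathway genes, 24 were below 0 (median -0.11, and -0.13 after quantile normalization). Fzd7 and Fzd2, Wnt receptors, were lower by differences of -0.32 and -0.35 without overlap. Cell cycle genes were below 0 in 20 of 30, with a median of -0.06 that was 0.02 after quantile normalization. Cenpf, a kinetochore protein, had 5.56, 5.55 and 5.90 in T+highBPA and 6.06, 6.29 and 6.56 in T+lowBPA, and Mki67, a proliferation marker, had 6.74, 6.23 and 6.77 in T+highBPA and 7.13, 7.09 and 7.17 in T+lowBPA. Neither was called, while Mad2l1 and Pcna of the same list were higher by 0.43 and 0.44. Among chromatin genes, Hdac3, a histone deacetylase, was higher by 0.77 and Dnmt3b, a DNA methyltransferase, was lower by a difference of -0.31.

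The 16 probe sets at least 2-fold lower held 8 skeletal muscle genes, and the arrays of all 16 overlapped. Ttn, the giant sarcomere protein, had 4.36, 4.25 and 8.99 in T+highBPA and 7.25, 6.32 and 11.10 in T+lowBPA. Myh4, a fast myosin, had 5.01, 5.23 and 9.69 in T+highBPA and 8.33, 6.85 and 11.52 in T+lowBPA. Replicate 3 was high in both groups, and the 95% interval of the Ttn difference ran from -5.95 to 1.24. Between arrays of the same replicate number, Ttn and Myh4 were lower in T+highBPA each time, though the labels state no pairing. The blocked fit of the 6 arrays called Ttn (adjusted p = 0.0121), Myl1 (0.0121) and Tnnt3 (0.0433) lower (limma). The median over 22 muscle genes was -0.79, and it was 0.03 without T+lowBPA replicate 3. With the mean of the muscle genes as a covariate, 66 probe sets were called, 60 higher and 6 lower, among them Krtcap2, Psma6, Rab13, Ephx1 and Npas2. Of 18 smooth muscle genes 8 were above 0, and of 14 endothelial genes 13 were below 0. Markers of other glands and cells were mostly dim and below 0, in 10 of 10 for seminal vesicle and coagulating gland, 9 of 10 for urothelium and 11 of 12 for neuroendocrine cells.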

How the data were processed

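Lateral prostate RNA of 14 rats was measured on Affymetrix arrays. The deposited values are log2 values made by the authors with RMA, per the submitters' processing notes, so background correction, normalization and probe summaries preceded deposit. Neither labels nor headers state the RMA version, the probe set definition or the build. Groups came from sample titles. The table held 17802 probe sets, 16134 with 1 gene symbol, and 3132 symbols were updated with the RefSeq gene table of GRCr8. Each probe set was fitted with limma 3.58.1 (R 4.3.3), 1 coefficient per group over all 14 arrays (10 residual degrees of freedom, prior 4.057), two-sided, with Benjamini-Hochberg adjustment over all probe sets and a call at adjusted p below 0.05. No value was filtered out. The fit was tested on simulated data. Arrays carry no read depth, and their number limits the precision.

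The members and lists were chosen with earlier results of these data known. Genes are named as the 12 with the smallest p in each direction without overlap, the 8 with the largest differences at unadjusted p below 0.05, up to 4 members with the smallest p of each list described, and 14 followed genes. Outside these rules, the other measured clock genes and some genes called in alternatives are also named. Serial symbols, such as those of olfactory receptors, were left out of the rules by p and by difference. This removed 6 lower and 0 higher genes by p, and 3 lower and 0 higher by difference. Promoters came from RefSeq (GRCr8). The labels state no pairing of T+highBPA and T+lowBPA arrays. Their deviations from the group means correlated at 0.159, 0.103 and 0.243 for same-numbered arrays. For differently numbered arrays the correlations ran from -0.226 to 0.112. The fit reported did not pair the arrays, and the replicate number was used as a block in alternatives only. Alternatives were other scalings, a filter on dim probe sets, covariates, array weights, a replicate block, the 6 arrays alone and leaving out each array.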

Additional observations from a re-analysis of the deposited data

Results flagged for a closer look

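On 5 occasions, 1 array lay far from the other 3 of its group of 4, in the T+E2 or control arrays that share the estimate of the spread. Chance gives such a gap in about 1 in 20 groups. The number of groups screened is not given here, so the 5 cannot be set against chance. The mean of the ventral prostate secretory genes reached 9.38 in control replicate 4, while the remaining controls ran from 6.17 to 6.50. Klk1c9, a glandular kallikrein of that list, had 12.93 in the same array, against 4.80 to 4.90. The mean of cholesterol synthesis genes was 8.86 there, against 7.64 to 7.75. The mean of the interferon response genes was 7.05 in T+E2 replicate 2, against 6.83 to 6.86, and 7.03 in control replicate 1, against 6.61 to 6.64.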

How the results depend on the processing

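The count of called probe sets was 0 in the fit reported, with adjusted p below 0.1, with the replicate block, after each of the 3 scalings, with array weights, with the ventral covariate, with the robust trended prior, with the dim filter and with probe sets of 1 symbol only. It was 17 with the 6 arrays alone, 66 with the skeletal muscle covariate and, in alternatives chosen after seeing the data, 11 with the 6 arrays and a replicate block and 48 with the 6 arrays and the skeletal muscle covariate. The 6-array fit shared 3 calls with the covariate fit and 6 with its blocked form. Leaving out 1 array gave 0 to 1 calls, which were Ka11 without T+highBPA replicate 1 (adjusted p = 0.0404, limma) and Agr2 without T+highBPA replicate 3 (adjusted p = 0.000901, limma). The probe sets at unadjusted p below 0.05 numbered 2450, against 1378 with the dim filter, 1630 after quantile normalization, 2593 with the replicate block and 1475 (without T+lowBPA replicate 2) to 3029 (without control replicate 4) on leaving out 1 array. The replicate block changed no call of the 14-array fit, whereas on the 6 arrays alone it moved the 17 calls to 11, with Ttn, Myl1, Tnnt3, Cxcl10 and Scgb1d2 gained. Of 4199 pairs of a named gene and an alternative, 20 turned direction, in 12 genes. Those of Scgb1d2 (-0.43), Andpro (-0.0072), Scgb1d4 (-0.18) and Pbsn (0.19) with the ventral covariate involve members of the list that forms it, so the covariate takes up their own differences by construction. For the rest the cause was not tested. With that covariate the differences were -0.20 for Wfdc3, 0.0198 for Cald1, -0.23 for Esr2, -0.56 for Prlr and 0.48 for Tgm4. After cyclic loess the differences were 0.0055 for Esr1 and 0.0521 for Gper1. After quantile normalization they were -0.028 for Perp, 0.0009 for Esr1 and 0.0407 for Gper1. With the 6 arrays and the skeletal muscle covariate Tgm4 was at 0.51. Leaving out 1 array gave -0.1068 to 0.0108 for Esr1, -0.1377 to 0.0393 for Pbsn and -1.3541 to 0.3596 for Tgm4. Of 1107 pairs of a list median and an alternative, 68 moved by more than the spread between replicates.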
